A study of Arabidopsis thaliana with 27 samples.

Results

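The 60 genes described here encode proteins of the large (60S) subunit of the cytosolic ribosome of *Arabidopsis thaliana*. They were listed by locus ID and annotated protein, and are 60 of the 33977 gene rows of the count files. They belong to 24 protein families with 2 to 4 listed genes each, from the stalk base protein P0 and the large proteins L3 to L5 to the small proteins L36, L38 and L39. RNA was sequenced from 27 single plants, 1 library per plant, in 9 groups of 3. Floral stems of 6-week-old plants on peat mix and roots of 10-day-old plants on 0.5 MS medium were taken from Epi 8, Epi 24 and wild type (WT), and rosette leaves of 4-week-old plants at bolting, on peat mix, from Epi 8, Epi 10 and WT. All plants are Col-0. The epi-lines are F3 families from crosses of WT with a T-DNA mutant of *MSH1*, a nuclear gene whose protein binds DNA in both organelles with a genome, and carry the wild-type *MSH1* allele. Epi 8 and Epi 24 stem from one cross and Epi 10 from another, so each line stands for 1 family.

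Each ribosomal protein of Arabidopsis is encoded by a small family of paralogs, annotated as the same protein of the ribosome. Ribosome production is known to be high in dividing and growing cells. L5 carries the 5S rRNA into the forming subunit, P0 anchors the stalk that binds elongation factors, and L3, L10 and L39 lie near the catalytic centre or the exit tunnel. Mutants of several of these genes have leaf and organ phenotypes, as with *PGY1* (AT2G27530, L10a) and *PGY2* (AT1G33140, L9), found in a screen for enhancers of a leaf patterning mutant. Upstream of such genes, the telo box and the site II element are known sequence elements of genes for the translation machinery.

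The region from 250 bases before to 50 bases after the annotated gene start was read for each member from the TAIR10.1 genome (RefSeq). The telo box (AAACCCTA) was searched on both strands, as was the site II element (TGGGCC or TGGGCT, where matches on opposite strands can overlap and count separately). A telo box lay in 31 of the 60 member windows (51.7%) against 6.22% of 27443 protein-coding genes, and a site II element in 52 (86.7%) against 21.7%. Both motifs were present in 27 member windows (45%) against 2.2% of all, and neither in 4 (6.67%) against 74.3%. A few windows are shown because the results below turn on these genes, the L39 pair, the L36 pair and the 2 members with almost no reads. They run 5′ to 3′ on the gene's strand, with motif matches in capitals.
AT2G25210, chr2:10739605-10739904, plus strand: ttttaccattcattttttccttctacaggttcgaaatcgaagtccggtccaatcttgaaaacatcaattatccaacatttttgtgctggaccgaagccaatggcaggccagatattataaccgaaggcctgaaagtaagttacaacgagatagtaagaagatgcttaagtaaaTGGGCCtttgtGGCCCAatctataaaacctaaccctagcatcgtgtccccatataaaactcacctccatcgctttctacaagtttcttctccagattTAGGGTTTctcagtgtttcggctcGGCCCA
AT4G31985, chr4:15469591-15469890, plus strand: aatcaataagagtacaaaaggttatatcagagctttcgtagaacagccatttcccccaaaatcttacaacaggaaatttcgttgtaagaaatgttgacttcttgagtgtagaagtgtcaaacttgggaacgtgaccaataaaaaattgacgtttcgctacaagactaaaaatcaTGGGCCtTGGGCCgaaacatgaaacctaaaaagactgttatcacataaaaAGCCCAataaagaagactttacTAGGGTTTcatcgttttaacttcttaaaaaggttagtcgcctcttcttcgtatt
AT3G53740, chr3:19915017-19915316, minus strand: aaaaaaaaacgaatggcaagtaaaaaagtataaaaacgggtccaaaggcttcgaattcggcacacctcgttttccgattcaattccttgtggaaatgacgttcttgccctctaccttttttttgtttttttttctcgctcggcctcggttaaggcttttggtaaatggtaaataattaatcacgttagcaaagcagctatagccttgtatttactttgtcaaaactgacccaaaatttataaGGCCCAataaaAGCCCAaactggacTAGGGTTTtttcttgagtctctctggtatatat
AT2G37600, chr2:15775325-15775624, minus strand: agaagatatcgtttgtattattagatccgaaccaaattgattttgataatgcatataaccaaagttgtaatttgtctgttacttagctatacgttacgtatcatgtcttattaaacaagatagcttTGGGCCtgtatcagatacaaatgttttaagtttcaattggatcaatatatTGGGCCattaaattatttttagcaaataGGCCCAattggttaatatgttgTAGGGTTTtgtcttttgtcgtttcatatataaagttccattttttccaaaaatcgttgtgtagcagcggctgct
AT3G48960, chr3:18151363-18151662, minus strand: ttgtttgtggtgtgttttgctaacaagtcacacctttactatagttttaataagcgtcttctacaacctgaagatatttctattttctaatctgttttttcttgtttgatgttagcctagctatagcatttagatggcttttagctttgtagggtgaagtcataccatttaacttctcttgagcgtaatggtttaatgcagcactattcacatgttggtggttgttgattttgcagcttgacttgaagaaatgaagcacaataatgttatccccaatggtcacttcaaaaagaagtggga
AT3G51190, chr3:19017498-19017797, minus strand: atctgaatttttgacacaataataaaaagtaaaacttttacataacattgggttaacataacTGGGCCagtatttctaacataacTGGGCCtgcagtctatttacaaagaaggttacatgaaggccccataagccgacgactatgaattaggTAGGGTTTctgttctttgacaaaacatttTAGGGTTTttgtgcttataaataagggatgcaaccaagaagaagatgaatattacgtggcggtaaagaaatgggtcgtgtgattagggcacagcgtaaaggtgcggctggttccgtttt
Both L39 genes, AT2G25210 and AT4G31985, had 1 telo box and 3 site II matches, although they differ in level between organs as described below. The L36 genes had 1 telo box each, with 2 site II matches in AT3G53740 and 3 in AT2G37600. AT3G48960 (L13) had neither motif, but its gene model holds no UTR, so its window is placed from the start codon. AT3G51190 (L8) had 2 telo boxes and 2 site II matches and yet almost no reads. A match is a match of letters, and no binding was measured.

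Stem libraries held 18465252 to 21219383 counts, root libraries 18524351 to 20041205 and leaf libraries 48098795 to 90808615, so leaf libraries were the deepest. The counting error of a gene depends on its level as well as on depth. The summed counts of the 60 genes were 2.08 to 3.27% of a root library, 0.533 to 1.37% of a stem library and 0.655 to 0.979% of a leaf library. Every root library was above every stem and leaf library. Plants of one group differed most in WT stem (1.29, 0.829 and 0.533% for plants 1 to 3) and in Epi 8 stem (0.767, 1.37 and 1.25%), while WT leaves had 0.929, 0.979 and 0.857% and Epi 8 leaves 0.703, 0.66 and 0.655%. The summed level of 5 genes of the lignifying stem (*CESA4*, *CESA7*, *CESA8*, *IRX8* and *NST3*) also varied among stems, at 1313, 2307 and 6573 CPM in WT plants 1 to 3, 4142 to 4815 CPM in Epi 24 and 558.8 to 1892 CPM in Epi 8. CPM is the read count scaled to a common library size, here with the TMM factors of edgeR. Within WT the plant with the highest member share had the lowest stem marker level, and the part of tissue make-up in the stem results was not tested. The marker genes of leaf summed to 20870 to 30020 CPM in leaf, 27780 to 45430 CPM in stem and 275.1 CPM or less in root. They thus set leaf apart from root but not from stem. The marker genes of root summed to 207.9 CPM or more in root and 43.39 CPM or less elsewhere. Of the 5 root markers, *SCR* was higher in leaf (29.6 to 42.9 CPM) than in root (19.4 to 28.7 CPM), and the other 4 were lower in WT leaf than in WT root. In whole organs, fewer cells of a type and less RNA per cell cannot be told apart.

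**Figure D1:**
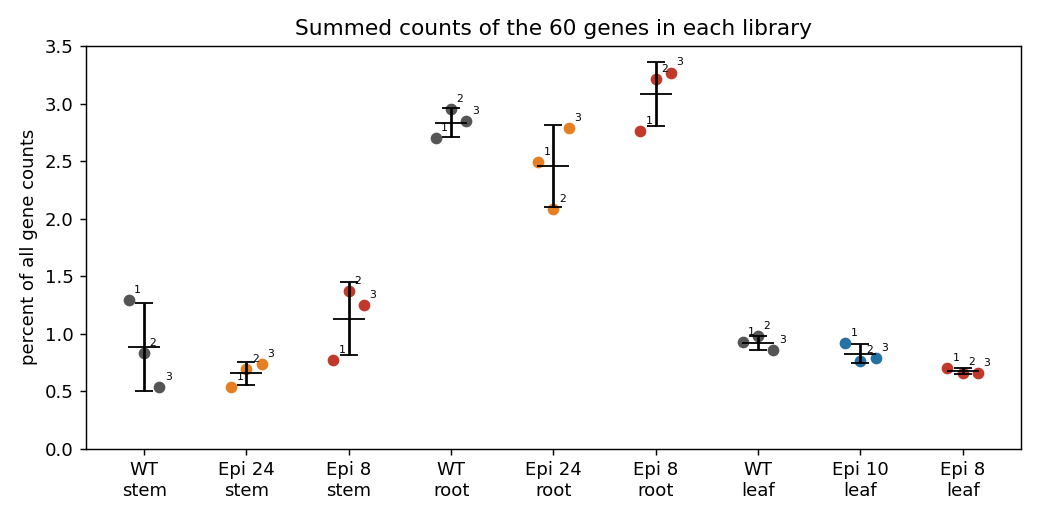
Summed counts of the 60 genes as a percentage of all gene counts, for each of the 27 libraries; points are plants (numbered), bars the mean ± SD of 3 plants. Roots lie between 2.08 and 3.27%, stems and leaves below 1.4%, and the 3 Epi 8 leaves (0.655 to 0.703%) below the 3 WT leaves (0.857 to 0.979%).

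The question of the line comparisons is how gene expression differs between the epi-lines and WT. In leaf, Epi 8 had lower levels than WT for all 58 members tested (AT3G51190 and AT3G48960 had too few counts). In edgeR's quasi-likelihood test, 19 of the 58 were called lower and 0 higher, where called means a Benjamini-Hochberg FDR under 0.05 over all 20052 genes tested together with a log2 fold change (log2FC) of 0.5 or more in size. Of all genes tested, 0.953% were called, 0.773% lower and 0.18% higher, and 49% had a log2FC below 0. The median log2FC of the 58 members was -0.51, against 0.01 for all genes tested, and single values ran from -1.43 to -0.25. In 56 of the 58 members the 3 Epi 8 plants all lay below the 3 WT plants, compared with 13.3% of all genes. An unadjusted p under 0.05 was reached by 58 of 58 members and by 20.3% of all genes. Among the members not called, 11 had a log2FC of -0.5 or below, and the FDR of the 19 called members lay between 0.0134 and 0.0498, close to the limit. The number called depended on the fit and on single plants. DESeq2 called 30 (3.95% of all genes), a fit of the 6 Epi 8 and WT leaf libraries called 7 (0.217%), and a fit with the plant number as a block called 6 (0.209%). In the fit of 9 leaves it was 0 without Epi 8 plant 1 or without WT plant 2, 2 without WT plant 1 and 3 without Epi 8 plant 2. It was 10 without Epi 8 plant 3 and 14 without WT plant 3. In these fits 0 to 0.84% of all genes were called, whereas the median log2FC of the members stayed between -0.54 and -0.44.

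The largest decrease was in AT2G25210, the L39 gene with fewer reads, whose product lines the exit tunnel for the nascent protein. The 3 WT leaves gave 22.7, 33 and 19.5 CPM, the Epi 10 leaves 20.8, 16.7 and 16.2 CPM and the Epi 8 leaves 9.51, 7.66 and 10.8 CPM. The Epi 8 plants lay below all others, while Epi 10 and WT overlapped. The log2FC of Epi 8 against WT was -1.43 (SE 0.202, FDR = 0.0262). The other L39 gene, AT4G31985, stood at 57.6, 65.7 and 56 CPM in WT, at 48.9, 48.7 and 42.8 CPM in Epi 10 and at 32, 27.6 and 34.7 CPM in Epi 8 (log2FC -0.93, SE 0.108, FDR = 0.0134). Here the 3 lines did not overlap. Within the pair, AT2G25210 made up 31.1% ± 1.26 of the counts per kb of exon in Epi 8 leaf, 36.8% ± 2.54 in Epi 10 and 38.6% ± 4.41 in WT (SD, n = 3). The shares of the Epi 8 plants (29.7 to 32.3%) lay below those of the WT plants (34.7 to 43.4%), a difference that was not tested.

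AT3G59540 (L38, a small protein of the subunit surface) had 68.5, 67.4 and 71.4 CPM in WT leaf against 40, 33.2 and 42.7 CPM in Epi 8 (log2FC -0.84, SE 0.0983, FDR = 0.0134). AT4G13170, a minor gene of the L13a family, had 45.9, 46.8 and 41 CPM against 23.7, 28 and 25.5 CPM (log2FC -0.79, SE 0.0945, FDR = 0.0134). AT2G40010, the least abundant of the P0 genes, had 9.68, 10.5 and 8.33 CPM against 4.94, 5.73 and 4.89 CPM (log2FC -0.88, SE 0.158, FDR = 0.0398). In each of these genes the Epi 8 and WT plants formed separate groups. Epi 10 lay between them for AT3G59540 (53.9 to 59.1 CPM), while for AT2G40010 (6.86 to 9.39 CPM) it overlapped WT. Of the 60 members 14 overlap an annotated gene on the opposite strand, among them the called members AT4G13170, AT2G40010, *PGY2*, AT5G27850 (L18) and AT4G29410 (L28), and also *RPL3B* (AT1G61580) and AT4G02230 (L19). The strand setting of the counting is not given in the sources used here, so reads of such partners cannot be told apart.

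**Figure D2:**
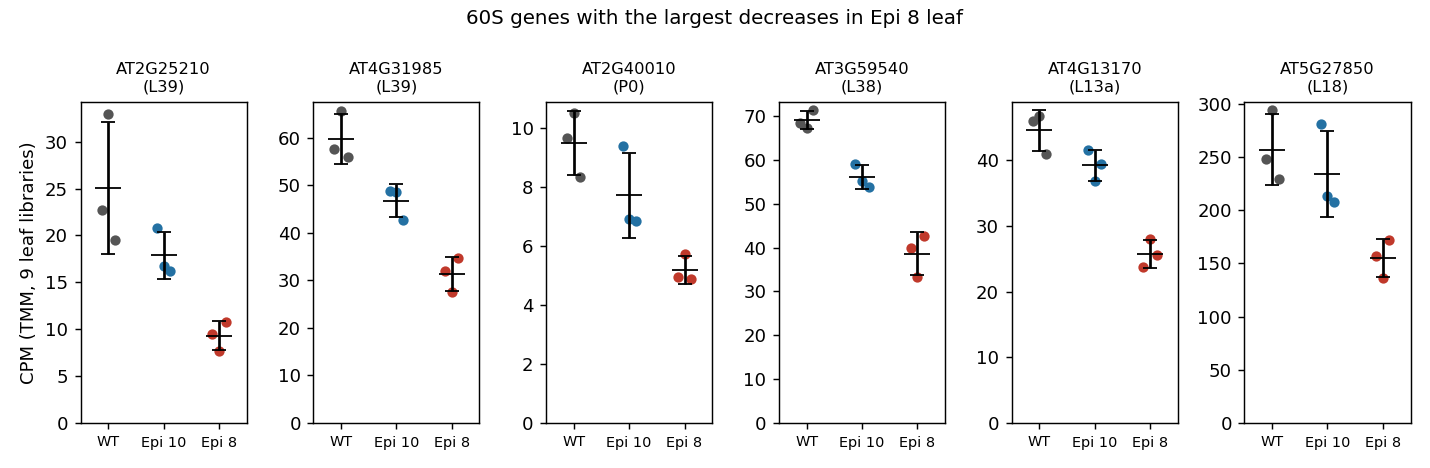
Level in CPM (TMM scaling of the 9 leaf libraries) of the 6 members with the largest decreases in Epi 8 leaf; points are plants, bars the mean ± SD of 3 plants. All Epi 8 plants lie below all WT plants in each panel, for example at 7.66 to 10.8 CPM against 19.5 to 33 CPM for AT2G25210.

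The other 14 called members were spread over the subunit. In 3 families every tested gene was called, L39, L23a and L13. L23a sits at the tunnel exit, where it is known to take part in the docking of factors to the nascent chain. *RPL23AA* (AT2G39460) had 224 ± 20.7 CPM in WT leaf and 136 ± 21.8 CPM in Epi 8, and *RPL23AB* (AT3G55280) 82 ± 5.61 and 50.6 ± 3.78 CPM (SD, n = 3), with log2FC of -0.72 and -0.69 in the same order. In the L13 family, *BBC1* (AT3G49010) had 295, 250 and 258 CPM in WT against 194, 161 and 193 CPM in Epi 8 (log2FC -0.55), and AT5G23900 had 109, 100 and 97.1 CPM against 61.7, 56.1 and 68.7 CPM (log2FC -0.71). Both L7 genes with a call, AT2G01250 (-0.66) and AT2G44120 (-0.63), and AT5G27850 of L18 (-0.73) were of similar size. AT4G27090 (L14), the member with the highest mean CPM per kb of exon over the 27 libraries, was called too. It had 155, 138 and 133 CPM in Epi 8 leaf against 211, 258 and 204 CPM in WT leaf (log2FC -0.66). The remaining called members were *RPL10B* (AT1G26910, -0.62), AT5G22440 (L10a, -0.65), AT4G10450 (L9, -0.60), AT3G49910 (L26, -0.60), AT4G29410 (-0.54) and *PGY2* (-0.54). *PGY2* shares 416 of its 852 transcript windows of 150 bases with its neighbour AT1G33120, and reads that fit both genes equally were not counted. No other pair of family members shared a window of that length. By motif, 10 of the 19 called members had a telo box, as did 20 of the 39 members tested and not called, and 16 of 19 and 35 of 39 had a site II element.

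Other genes of the translation machinery were compared with these members in the same fit. Of 65 further 60S genes, 62 were tested, 61 were lower and 23 were called lower (median log2FC -0.58). Of 25 genes for the small (40S) subunit, 25 were lower and 6 called (median -0.52). Of 21 genes for plastid ribosomal proteins, 20 were lower and 3 called (median -0.35), and of 17 genes for 60S assembly factors, 16 were lower and 1 called (median -0.21). The 5 genes known as regulators or sensors of ribosome production, *TCP20*, *TRB1*, *PURA1*, *TOR* and *NAC082*, ran from -0.03 to 0.14 with 0 called. The 6 genes of dividing cells, which include the mitotic cyclins *CYCB1-1* and *CYCB3-1*, summed to 15.92 to 26.12 CPM in Epi 8 leaf and 24.55 to 32.33 CPM in WT. All 6 were lower and 0 were called (2 at an unadjusted p under 0.05, *CYCB1-1* with log2FC -0.76 and *CYCB3-1* with -0.77), and the part of dividing cells was not tested. The leaf markers summed to 22260 to 24190 CPM in Epi 8 and 23420 to 30020 CPM in WT, and stem markers to 21.45 to 25.72 and 26.19 to 36.81 CPM, without overlap. All 4 stem markers tested were lower in Epi 8, 3 of them without overlap of the plants, and 0 were called (1 at an unadjusted p under 0.05). Root markers summed to 37.83 to 43.39 CPM in Epi 8 and 30.24 to 32.99 CPM in WT, most of it *SCR* (37.3 to 42.9 and 29.6 to 32 CPM), while *NRT2-1* had a log2FC of -0.32 (FDR = 0.693 in edgeR) and *EXPA7* and *TIP2-3* were at 0 in both. The part of tissue make-up in the leaf result was not tested.

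Epi 10 leaf, from the other cross, was also below WT for 58 of 58 members (52.6% of all genes), with a median log2FC of -0.19 against -0.01 for all genes, and in 16 the plants did not overlap (7.44% of all genes). In edgeR 0 members and 0% of all genes were called, 19 members had an unadjusted p under 0.05 (7.03% of all genes), and DESeq2 called 0. Compared directly, Epi 8 was below Epi 10 for 57 of 58 members (46.5% of all genes; median log2FC -0.31), without overlap of the plants for 35 (6.94% of all genes), with 0 called in edgeR (0% of all genes), 36 at an unadjusted p under 0.05 (7.08% of all genes) and 5 called in DESeq2 (0.276% of all genes). The 2 comparisons with WT share the WT plants.

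In root and stem most members had their highest mean in Epi 8. In root, 54 of 58 members were higher in Epi 8 than in WT (49.9% of all genes; median log2FC 0.13) and 58 of 58 were lower in Epi 24 than in WT (49.4% of all genes; median -0.19), again with the same WT plants. With 1 plant left out the medians ran from 0.09 to 0.18 and from -0.29 to -0.09. The plants did not overlap for 11 members in the first comparison and 11 in the second (6.77 and 5.46% of all genes). edgeR and DESeq2 called 0 members in both, where 0% of all genes were called in edgeR, and 2 and 5 members had an unadjusted p under 0.05 (5.6 and 6.91% of all genes). Compared directly, all 58 were higher in Epi 8 than in Epi 24 (49.7% of all genes; median log2FC 0.32). edgeR called 0 of them (0.0192% of all genes) and DESeq2 called 1 of the 57 with an adjusted p (1.93% of all genes), while 38 of 58 had an unadjusted p under 0.05, compared with 11.4% of all genes, and in 25 all Epi 8 plants lay above all Epi 24 plants (8.47% of all genes). *RPL3B* (AT1G61580), the minor gene of L3, a protein near the catalytic centre, had the smallest p, at 90.4 ± 10.9 CPM in WT root, 78.2 ± 6.53 CPM in Epi 24 and 112 ± 3.92 CPM in Epi 8 (SD, n = 3). Its log2FC of Epi 8 against Epi 24 was 0.51 (SE 0.128, FDR = 0.252 in edgeR). The most abundant L19 gene, *emb2386* (AT1G02780), had 1090 ± 147, 885 ± 129 and 1240 ± 131 CPM in the same order, a log2FC of 0.49 (SE 0.143, FDR = 0.287). The L39 genes differed little between Epi 8 and WT root, AT2G25210 at 259 ± 29.6 and 262 ± 36.7 CPM and AT4G31985 at 406 ± 39.3 and 386 ± 32.5 CPM. The genes of dividing cells summed to 193 to 200.3 CPM in Epi 8 root, 164.7 to 191.9 CPM in Epi 24 and 160.8 to 175.3 CPM in WT, and those of root to 207.9 to 243.3, 276.1 to 460.3 and 243.3 to 310.5 CPM in the same order. The stem markers, which act in wood formation, summed to 77.89 to 101 CPM in Epi 8 root, 111.8 to 177.4 CPM in Epi 24 and 93.42 to 119.9 CPM in WT. The sums of dividing-cell genes, root markers and stem markers each did not overlap between Epi 8 and Epi 24, and those of dividing-cell genes not between Epi 8 and WT. All 6 dividing-cell genes were higher in Epi 8 than in WT, 4 without overlap of the plants (6.77% of all genes). Against Epi 24, 5 of the 6 were higher, 0 without overlap, and 0 were called in either comparison. Of the root markers 3 of 5 were lower in Epi 8 than in Epi 24, among them *TIP2-3* (log2FC -1.06, FDR = 0.148) and *CASP1* (-0.70, FDR = 0.295), as were 4 of the 4 stem markers tested, from -0.95 (*CESA7*) to -0.46, with *NST3* at 0 in both. In edgeR 0 of them were called (2 and 4 at an unadjusted p under 0.05). The part of dividing cells and of tissue make-up in the result was not tested.

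In stem, 56 of 59 members were higher in Epi 8 than in WT (median log2FC 0.25) and 59 of 59 were lower in Epi 24 than in WT (median -0.38), and 59 of 59 were higher in Epi 8 than in Epi 24 (median 0.66). Of all genes, 51.3, 50.6 and 51.5% had that direction, with medians of 0.01, 0.00 and 0.02. In the last comparison the plants did not overlap for 11 members (12.6% of all genes). edgeR and DESeq2 called 0 members in all 3 comparisons, where 0.0255%, 0% and 0.0153% of all genes were called in edgeR. At an unadjusted p under 0.05 there were 0, 0 and 16 members, against 8.82, 6.11 and 16.8% of all genes. The plants of the lines overlapped for most members. AT4G27090 (L14) had 411 ± 139 CPM in WT stem, 356 ± 48.9 CPM in Epi 24 and 517 ± 119 CPM in Epi 8, and the WT spread was wider than the difference. When single plants were left out, the median moved between 0.04 and 0.61 for Epi 8 against WT and between -0.64 and -0.04 for Epi 24 against WT.

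**Figure D3:**
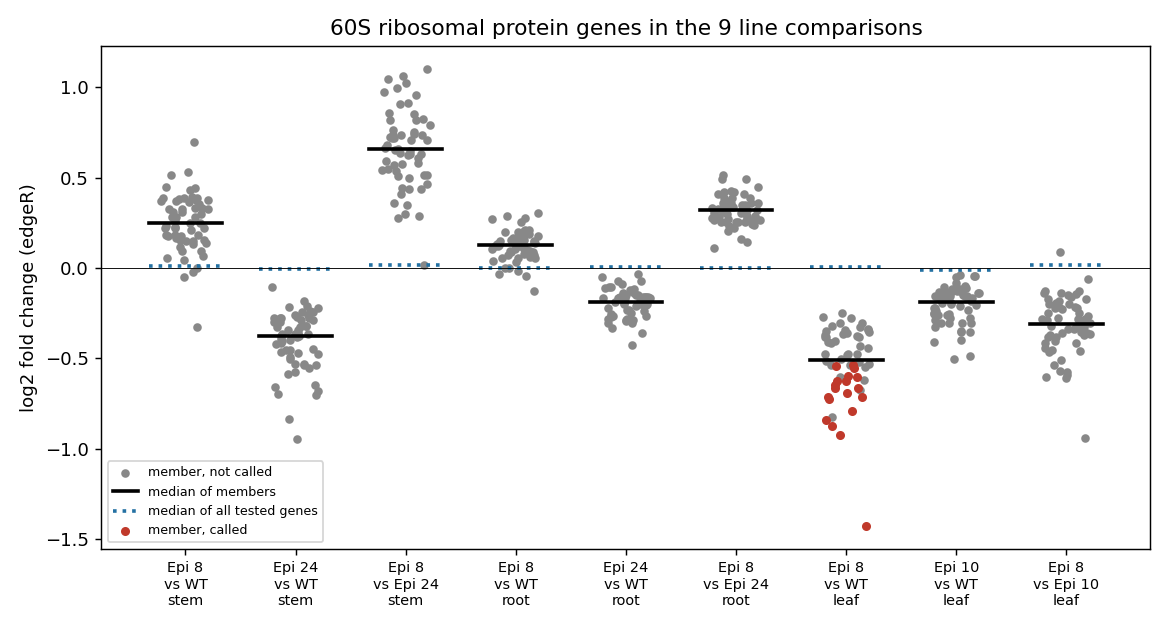
Log2 fold changes of the tested members (points) in the 9 line comparisons, with called members in red, the median of the members as a solid line and that of all genes tested as a dotted line. Members lie together on one side of 0 in most comparisons, and calls occur in Epi 8 against WT leaf, with 19 of 58.

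The effect of Epi 8 was compared between organs by a test of the difference itself in a fit of all 27 libraries. The Epi 8 effect was lower in leaf than in root for 58 of 58 members with counts in both organs (median difference -0.66 on the log2 scale) and lower in leaf than in stem for 58 of 59 (median -0.76, AT3G48960 with 12 counts or fewer per library excepted), compared with 50.5 and 48.3% of all genes. edgeR called 0 members in either test (0% and 0.29% of all genes), and 24 and 38 members had an unadjusted p under 0.05 (8.05 and 12.4% of all genes). Between root and stem, 0 were called (0.316% of all genes) and 0 had such a p (10.5% of all genes). The count of calls in the test of leaf against stem changed with single stem plants. Without WT stem plant 1, the plant with the highest share, 27 members were called lower in leaf (median -1.13, with 3.12% of all genes called in that fit), and without Epi 8 stem plant 1, the plant with the lowest share of that line, 16 (3.02% of all genes). The difference between leaf and root kept 0 calls in every fit with 1 plant left out.

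Organs were compared in WT and, side by side, in Epi 8. Organ goes with age, growth medium and sequencing depth in these samples, and these cannot be told apart. In WT, 56 of 59 members were called higher in root than in stem, where 28.7% of all genes were called higher and 60.9% in either direction, and 1 was called lower (32.2% of all genes). The median log2FC was 1.25, against -0.08 for all genes. The log2FC was largest for *SAG24* (AT1G66580), the L10C gene, with 102, 79.8 and 67.1 CPM per kb of exon in WT stem and 335, 398 and 369 in root (log2FC 2.15, SE 0.186, FDR = 9.07e-10). Close to it were AT5G22440 (L10a, log2FC 2.11), AT2G25210 (L39, 2.1) and *RPL3B* (2.02). AT2G25210 had 188, 112 and 65.5 CPM per kb in stem and 568, 562 and 437 in root. The called members with the smallest increase were the L6 gene AT1G74050 (0.52, SE 0.171, FDR = 0.0103), AT5G23900 of L13 (0.63) and AT3G13580 of L7 (0.67), and AT4G02230 (L19) and AT2G37600 (L36) were not called (log2FC 0.34 and 0.47). The same comparison in Epi 8, which shares no library with WT, gave 56 members called higher and 1 lower (median 1.18), where 60.6% of all genes were called, 29.1% higher and 31.5% lower, and 57 members were called in both lines in the same direction.

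AT3G48960, the third L13 gene, was the member called lower in root. It passed the filter on low counts in the fit of all 27 libraries through its stem counts. Its call in root and the ratios given here therefore rest on the organ that let it in, and are not independent of it. The same holds for WT leaf against stem, where the gene was also called lower. It had 11, 10 and 7 counts in the WT stems and 0 in every one of the 9 root libraries, where 3 counts would correspond to 0.12 to 0.134 CPM. In WT it was at least 4.2-fold higher in stem than in root, with the root set at 3 counts per library. Over all lines it had 75 counts in the 9 stems and 5 in the 9 leaves, although leaf libraries were deeper. In WT the ratio of stem to leaf was 36.8, with an exact 95% interval from 11.4 to 189 that covers counting error. AT3G51190 (L8) had 33 counts in all, in 9 of the 27 libraries and at most 6 in one, and was removed by the filter on low counts in the edgeR fits described here. The interval does not cover the spread between plants, and the reads carry no molecular identifiers.

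Leaf and stem differed less evenly. In WT, 14 of 59 members were called higher in leaf than in stem and 7 lower (60.3% of all genes were called, 29.1% higher and 31.2% lower). The median log2FC was 0.19, and 0.00 for all genes. The higher group held AT4G10450 (L9) at 26.3, 13 and 9.28 CPM per kb in stem and 47.9, 49.5 and 40.7 in leaf (log2FC 1.51, SE 0.308, FDR = 0.00019), *RPL3B* (1.21) and both L5 genes. L5 joins the 5S rRNA, and *ATL5* (AT3G25520) had 176 ± 83.4 CPM per kb in stem and 382 ± 20 in leaf, *RPL5B* (AT5G39740) 142 ± 67.5 and 308 ± 29 (log2FC 1.12 for both). The lower group held AT3G53740 (L36) with 388, 264 and 168 CPM per kb in stem and 114, 116 and 118 in leaf (log2FC -1.24, SE 0.229, FDR = 6.15e-05), AT4G27090 (L14, -0.78) and AT4G02230 (L19, -0.77). The counts rested on single WT stems. Without WT stem plant 1, 29 members were called higher and 3 lower (28 and 30% of all genes), with a median of 0.56. Without WT stem plant 3, 11 were higher and 12 lower (27.7 and 29.3% of all genes, median -0.02), and with no scaling factor beyond library totals 11 and 10 (26.5 and 33.3%). In Epi 8, 2 members were called higher in leaf than in stem and 32 lower (60.1% of all genes were called, 29.2% higher and 30.9% lower, median log2FC -0.61). Members called in both lines numbered 9, with the same direction in each, 12 were called in WT alone and 25 in Epi 8 alone, and the difference between lines is the one tested above.

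Against root, leaf was lower for 50 of 59 members called in WT, with 0 higher (68.5% of all genes were called, 32.7% higher and 35.9% lower). The median log2FC was -1.09, and -0.05 for all genes. The decrease was largest for AT2G25210 (L39), at 568, 562 and 437 CPM per kb in root and 64.9, 94.5 and 55.8 in leaf (log2FC -2.86, SE 0.336, FDR = 7.82e-08). It was followed by AT3G53740 (L36, -2.29), AT4G31985 (L39, -2.17) and AT3G16780 (L19, -1.94). The called members with the smallest decrease were AT4G13170 (L13a, -0.52), AT1G74050 (L6, -0.55), AT5G02870 (L4, -0.57) and AT3G62870 (L7a, -0.59). In Epi 8, 58 members were called lower and 0 higher (69.1% of all genes were called, 33.1% higher and 35.9% lower, median -1.78), among them the 50 called in WT. The further 60S genes and the 40S genes had the same order in WT as the members. In root against stem, 58 of 63 and 24 of 25 were called higher and 1 and 0 lower (medians 1.283 and 1.395). In leaf against root, 61 of 63 and 20 of 25 were called lower and 1 and 0 higher (medians -1.321 and -0.945). Genes for plastid ribosomal proteins had the opposite order between leaf and root in WT, with 21 of 21 called higher in leaf than in root (median log2FC 3.99). Against stem, 21 of 21 were called lower in root (median -2.80).

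**Figure D4:**
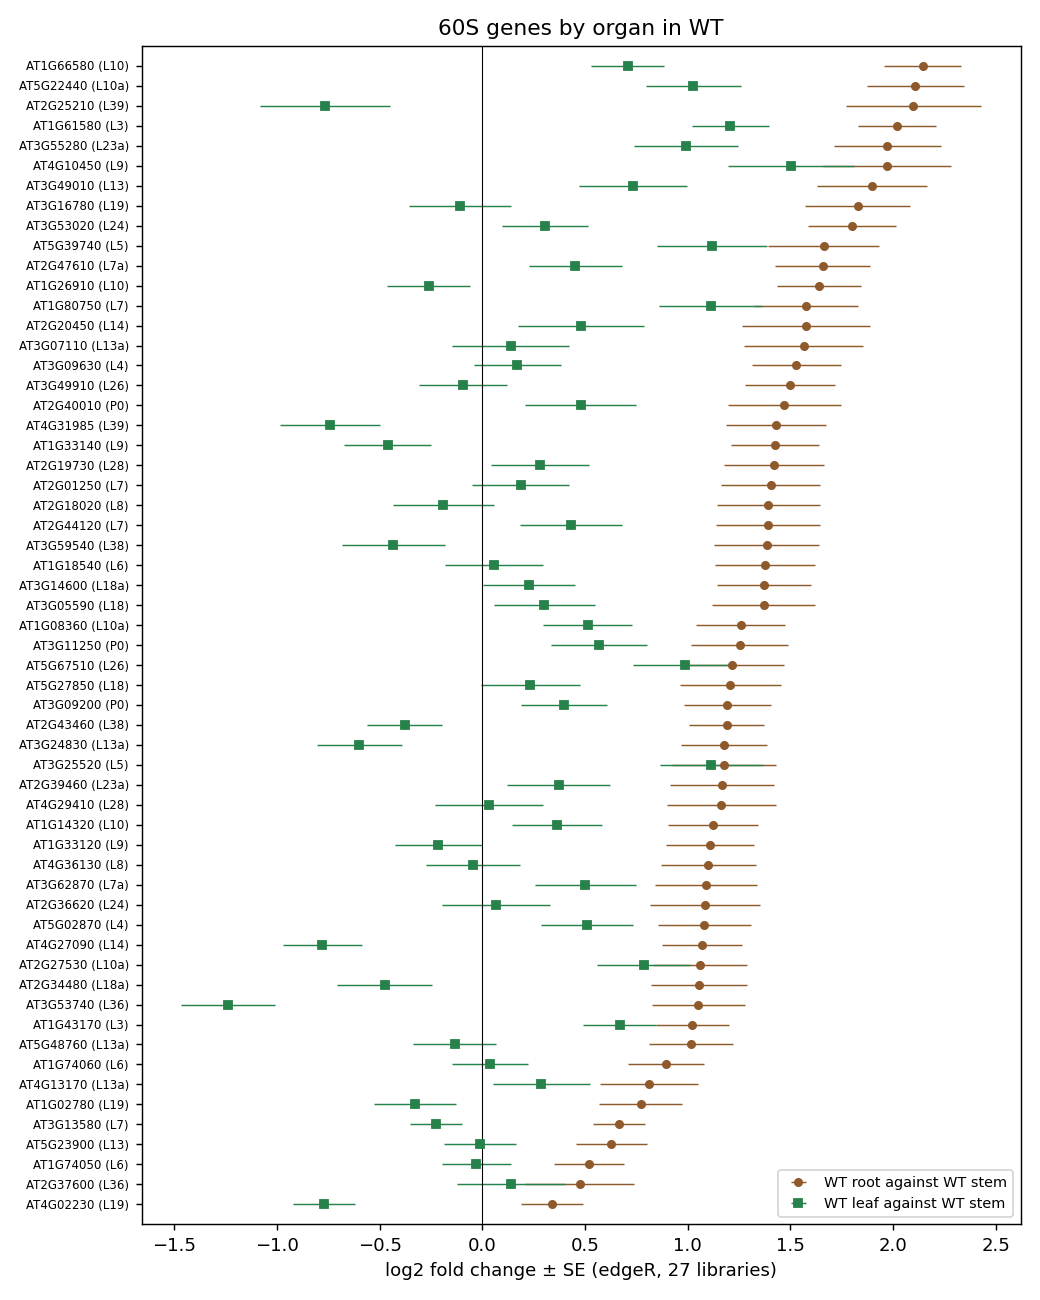
Log2 fold change ± SE of 58 tested members in WT root against WT stem (circles) and WT leaf against WT stem (squares), ordered by the first; AT3G48960, with 0 counts in root, is left out. Root values are above 0 for all 58, from 0.34 to 2.15, while leaf values run from -1.24 to 1.51.

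Levels per length also differed between members. Over the 27 libraries the mean was highest for AT4G27090 (L14) at 728 CPM per kb (209 to 1470), followed by *emb2386* (L19) at 518 and AT2G34480 (L18a) at 488. *SAC52* (AT1G14320), the L10A gene, known from a suppressor of a dwarf mutant, followed at 431. The lowest were AT3G51190 (0.0567) and AT3G48960 (0.249), then AT2G40010 (P0, 8.55), *RPL10B* (17.3), AT4G13170 (L13a, 24.2) and AT3G11250 (P0, 28). Shares within a family were averaged over the lines of an organ. By counts per kb, the same paralog then had the largest share in all 3 organs in 19 of the 24 families. By raw counts this held in 23. This leading paralog took between 43.5% of its family (AT1G18540, L6) and 91.2% (*RP1*, AT1G43170, L3) over all libraries, and 90.2% for AT3G09200 in P0. Shares are among the listed members, and some families have further copies.

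In 5 families, L4, L5, L7a, L13 and L39, the leader in counts per kb, averaged over the lines of an organ, was not the same in every organ. By raw counts, without division by exon length, L4 was the 1 such family. Within WT alone, the leader in counts per kb also differed between organs in L6 and L10a. By raw counts the WT leader differed in L5, L7a and L10a besides L4. In L13 raw counts gave *BBC1* 59.6 to 65% in the stem groups, and in L39 they gave AT4G31985 59.7 to 61% in the root groups. In L13, *BBC1* had between 42.6 and 58.3% of the family in the 9 stems (median 47.4%), between 67.3 and 73.2% in the 9 roots and between 60.5 and 66% in the 9 leaves, so that stems and roots did not overlap. Both *BBC1* and AT5G23900 were called higher in root than in stem in level. In Epi 8 stem *BBC1* led with a mean of 53.4%, and AT5G23900 led in WT and Epi 24 stem. In L39, the share of AT2G25210 was 34.1 to 42.2% in stem and 47.9 to 52.5% in root, and in leaf 29.7 to 43.4%. AT4G31985 led in Epi 8 root with a mean of 50.7% and fell short of AT2G25210 in WT and Epi 24 root (49.3 and 49.4%), differences smaller than the spread between plants in WT and Epi 24. The L4, L5 and L7a pairs stayed near equal shares, with leading shares of 50.7 to 59.5%. Coding sequences of paralogs were 55.2 to 99.1% identical over 50 pairs (median 82.4%), 80.1% for the L39 pair and 99.1% for AT1G33120 and *PGY2*. The lowest values were those of AT1G80750, at 55.2 to 56.9% with the other L7 genes.

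Among the families with 1 leader, L36 had the largest range of shares. AT3G53740 took 83.1 to 88.9% in stem and 89 to 90.4% in root but 66 to 71.3% in leaf, and the leaves lay below all other libraries. AT2G37600, the other L36 gene, had 64.4 to 66.6 CPM per kb in WT root and 46.9 to 56.3 in WT leaf (log2FC -0.33, not called), while AT3G53740 had 548 to 585 and 114 to 118. In L14, AT4G27090 took 88.9 to 94.3% in stem and 85.2 to 87.7% in root, with 75.2 to 81.6% for leaf. In L10, a protein of the region where tRNAs bind, the share of *SAC52* was lowest in root (59.9 to 63.4%, compared with 73.6 to 79.2% in stem and 70.7 to 74.8% in leaf) and that of *SAG24* highest (33.5 to 37%, compared with 17.8 to 23.3% and 23.5 to 27.7%). In L13a, the leading gene AT3G24830 took 52.9 to 61.2% of stem, 48.8 to 52.2% of root and 41.3 to 44.9% of leaf.

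The remaining families also had their highest WT levels in root. P0, the stalk base, was led by AT3G09200, which had 221 ± 76.5 CPM per kb in WT stem, 505 ± 13.6 in root and 291 ± 16.1 in leaf (SD, n = 3), and the 3 P0 genes kept their order in every organ. *RP1* of L3 had 180 ± 41.7, 365 ± 25.5 and 286 ± 23.6 in the same organs, and its share of L3 was lower in root (86 to 89.7%) than in stem (91.5 to 96.4%), where *RPL3B* makes up the rest. L4, a protein of the tunnel wall, had AT5G02870 at 125 ± 42.1, 265 ± 23.2 and 178 ± 24.7 and AT3G09630 at 106 ± 31.8, 306 ± 9.71 and 119 ± 23.9. The log2FC of root over stem was 1.53 (SE 0.216) for AT3G09630 and 1.08 (SE 0.227) for AT5G02870, and in root AT3G09630 led. In L7a the leaf levels also differed, with AT2G47610 at 437 ± 18.2 and AT3G62870 at 413 ± 18.7 in root but 189 ± 16.8 and 275 ± 19 in leaf.

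The main genes of L8, L26 and L24 were also highest in root. *EMB2296* (AT2G18020), the main L8 gene and one needed for embryo development, had 261 ± 88.1 CPM per kb in WT stem, 686 ± 38.2 in root and 229 ± 39.4 in leaf. AT3G49910, the main L26 gene, had 222 ± 70.6, 628 ± 57.6 and 208 ± 21.1. Its partner *RPL26B* (AT5G67510) had 29.7 ± 12.1, 69.1 ± 11.4 and 58.9 ± 10, which was 7.87 to 13.3% of the family in the 9 roots and 19.2 to 24.6% in the 9 leaves, without overlap. *STV1* (AT3G53020), an L24 gene known to act in translation reinitiation and pistil patterning, had 210 ± 60.5, 732 ± 40.4 and 260 ± 10.5, with a log2FC of 1.8 (SE 0.214) for root over stem. *RPL24A* (AT2G36620) had 131 ± 56.6, 279 ± 5.54 and 138 ± 16.4 (1.08, SE 0.266).

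Leaf levels closer to root were seen in *PGY1* (L10a), with 173 ± 71 CPM per kb in WT stem, 362 ± 6.1 in root and 299 ± 30 in leaf, and in the L7 gene AT1G80750, with 22.1 ± 10.2, 66 ± 11.8 and 47.8 ± 1.17. Neither was called between leaf and root (log2FC -0.27, SE 0.226, and -0.47, SE 0.244). The main L7 gene, AT2G01250, had 218 ± 83.8, 578 ± 36 and 248 ± 32.7 and was called lower in leaf (-1.22, SE 0.24), and AT1G80750 was 6.18 to 8.07% of L7 in root and 9.61 to 13.7% in leaf. Among the small families, AT2G19730 (L28) had 218 ± 70.2, 584 ± 41.4 and 265 ± 51.1, AT2G43460 (L38) 268 ± 86.1, 610 ± 57.7 and 206 ± 12.1, and *RPL18* (AT3G05590) 216 ± 94.1, 560 ± 5.2 and 267 ± 34.1. AT1G18540, with the largest share of L6, had 134 ± 49.9, 347 ± 6.74 and 139 ± 9.29. The WT stem SD of these genes was wide, and plant 1 was the WT stem with the largest member share (1.29%). AT2G19730 had one of the larger decreases in Epi 8 leaf among members not called (log2FC -0.83, SE 0.205, FDR = 0.0787 in edgeR), and for AT2G43460 the values were close to the FDR limit but below the fold limit (-0.38, SE 0.0788, FDR = 0.0505).

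The ratio of each paralog to the rest of its family was compared between root and stem by an exact two-sided permutation test, with organ labels permuted within each line over 8000 arrangements. Of 60 ratios computed (46 distinct, since pairs mirror each other), 45 had an unadjusted p under 0.05. In 18 families, 35 ratios had p = 0.00025, the smallest these permutations can give. In 34 of these 35 root and stem libraries did not overlap. Ratios of other genes were not computed, so no share over all genes stands beside these counts. Between WT root and stem 60.9% of all genes were called in level. The counts therefore cannot be read as particular to these families. The log2 ratio was higher in root by 1.25 for *BBC1*, by 1.14 for *RPL3B*, by 1.04 for *SAG24*, by 1.07 for AT5G22440 and by 1.23 for AT3G16780 (L19), each with exact p = 0.00025. The mean difference was -0.01 for *emb2386* (SD over lines 0.06, exact p = 0.932) and 0.00 for *PGY2* (SD over lines 0.13, exact p = 0.943). Between lines, the mean share of AT3G53740 in leaf was 68.2% ± 1.92 in Epi 10, 69.4% ± 1.76 in Epi 8 and 69.2% ± 2.18 in WT (SD, n = 3), and its ranges overlapped. In stem its share was lowest in Epi 8 (83.1 to 84.3%) and highest in Epi 24 (86.9 to 88.9%), and these did not overlap.

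**Figure D5:**
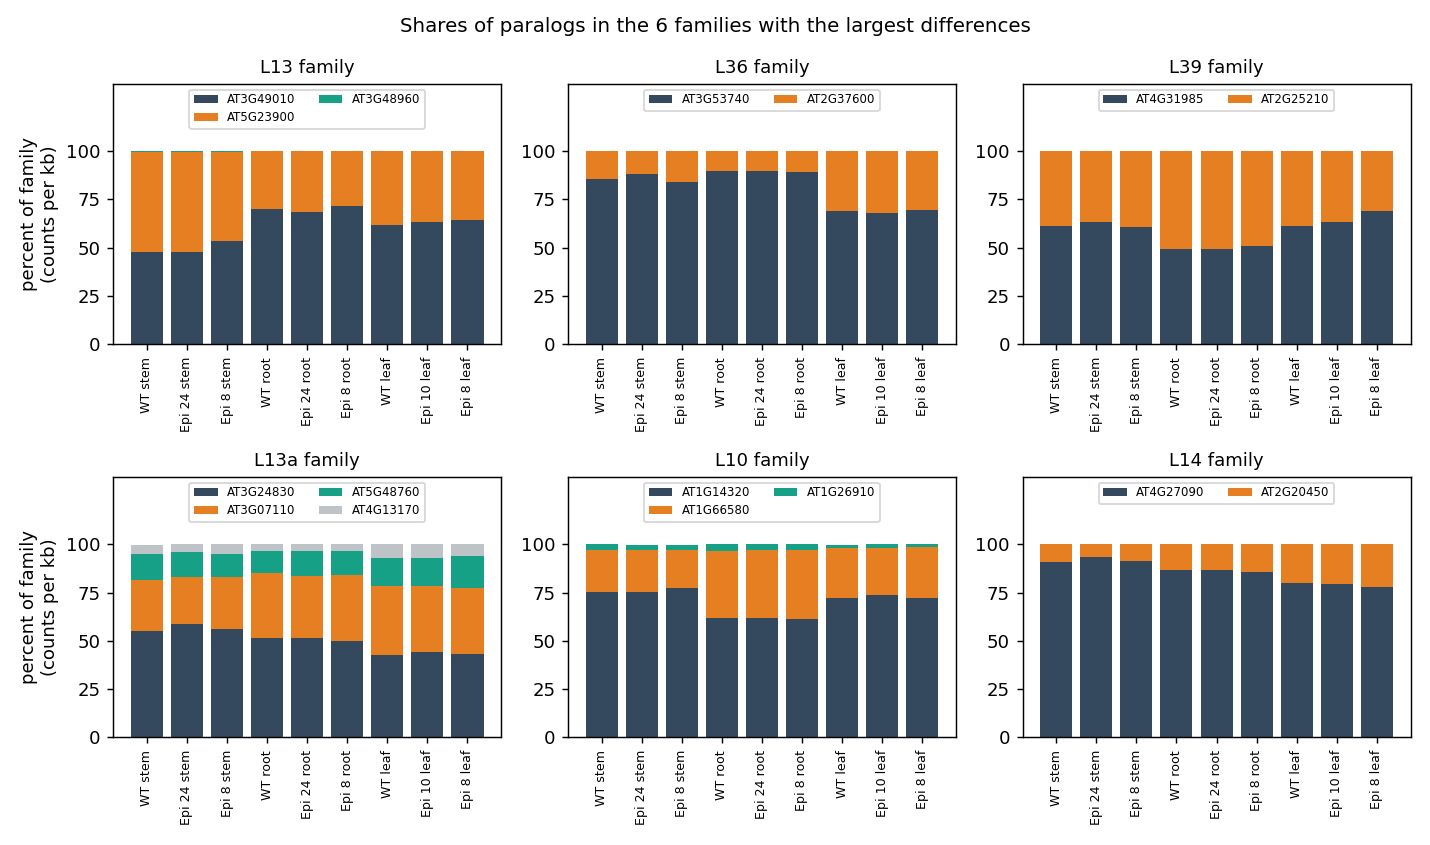
Mean share of each paralog in the summed counts per kb of its family, for the 9 groups (3 plants each), in the 6 families with the largest range; colours stand for paralogs. The bars of AT3G53740, for example, stand at 68.2 to 69.4% in the 3 leaf groups and at 89.2 to 89.9% in the 3 root groups.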

How the data were processed

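RNA-seq counts of 27 libraries, 1 per plant, were used. The deposited values are raw read counts per gene, not normalized. To make them, the authors used TrimGalore for trimming, STAR (2.7.3a in the submitters' processing notes) for alignment to TAIR10, and QoRTs for counting, and kept reads with a unique position. Reads that fit 2 paralogs equally are therefore missing. Reads assigned to no gene or to several (0.94 to 7.11% per library) were left out. The annotation (TAIR10.1, RefSeq) had the same start and end as the paper's coordinates for 1873 of 1873 genes.

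Lines were compared in a fit of the 9 libraries of an organ, and organs and the Epi 8 effect in a fit of all 27, with edgeR 4.0.16 in R 4.3.3 (filterByExpr, TMM, quasi-likelihood test, FDR under 0.05 and absolute log2FC of at least 0.5). DESeq2 1.42.0 and the other settings were alternatives. Levels between genes were divided by exon length, and 0.5 counts were added for log ratios of paralogs. Plants of a group differed by more than sampling noise (chi-square per degree of freedom at least 13.61). P-values measure the spread between single plants.

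The rule for the members uses no measured value, but members and lists were chosen with earlier results of these data known. Named members were those called in a line comparison, the 4 highest and 4 lowest in each WT organ comparison, the 6 families with the largest range of shares, the 3 highest and 6 lowest levels, and leading paralogs; others were chosen after their values were seen.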

Additional observations from a re-analysis of the deposited data

Results flagged for a closer look

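In 11 of 58 members (1.53% of the 18686 genes tested in both organs) all 3 Epi 8 plants lay above all WT plants in root and below all WT plants in leaf, which is what marked them, and in 0 members was it the reverse (1.03% of genes). The Epi 8 effect in leaf minus that in root, on the log2 scale, was -0.998 for AT4G13170 (L13a), -0.91 for *RPL23AB* (AT3G55280), -0.84 for AT3G07110 (L13a), -0.80 for *RPL3B* (AT1G61580), -0.77 for AT2G20450 (L14), -0.72 for *RPL24A* (AT2G36620), -0.72 for AT2G37600 (L36), -0.70 for AT3G16780 (L19), -0.69 for AT5G48760 (L13a), -0.65 for *PGY1* (AT2G27530) and -0.42 for AT4G02230 (L19). In the test of this difference in edgeR, 5 of the 11 had an unadjusted p under 0.05, as did 24 of all 58 members and 8.05% of all genes. The 11 were marked by the same plants, so the test is not independent of their choice. The Benjamini-Hochberg FDR of the 11 lay between 0.511 and 0.65, so that no difference passed the correction. *RPL3B* had the smallest p of the 11 (SE 0.255, unadjusted p = 0.00471 in edgeR). Among the 58 members, 54 were lower in Epi 8 leaf and higher in Epi 8 root than WT (27.1% of genes).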

How the results depend on the processing

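For Epi 8 against WT leaf, 19 members were called (0.953% of all genes). The count was 14 with RLE size factors (0.718%), 21 with no filter (0.964%), 30 with DESeq2 (3.95%), 7 in a fit of the 6 libraries compared (0.217%) and 6 with the replicate block (0.209%), and 0 to 14 with 1 plant left out. In the fits with 1 plant left out the median log2FC stayed between -0.54 and -0.44. DESeq2 called 5 members in Epi 8 against Epi 10 leaf and 1 in Epi 8 against Epi 24 root, where edgeR called 0. With 1 plant left out, WT leaf against stem gave 17 to 32 calls and the Epi 8 effect in leaf against stem 0 to 27. The cause was not tested. Plants were not paired by number in the main fits, and the correlations below do not settle whether the numbers pair them. Deviations of same-numbered plants correlated at 0.03 to 0.19 in Epi 8 and WT leaf and at -0.33 to 0.05 in Epi 8 and WT stem. They correlated at 0.057 to 0.172 in Epi 8 and Epi 24 stem and at -0.039 to 0.194 in Epi 24 and WT stem. In leaf the range was -0.165 to -0.005 for Epi 10 and WT and -0.346 to -0.035 for Epi 8 and Epi 10. The block moved no other count by over 1.5 times. Under all alternatives run, 374 values of named members kept direction and call, 141 lost the call and 0 turned direction. Of the paralog shares, 178 stayed within 1 SD and 38 moved further. All 38 came from raw counts, without division by exon length, so the shares depend on that division. An example is *BBC1* in Epi 8 leaf, at 64.4% by counts per kb and 74.6% by raw counts. In groups this small, leaving out 1 plant cannot move the mean by 1 SD. Those values therefore could not fail and do not show that the shares are stable. Stem and root depths limit AT3G48960 and AT3G51190.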
